A study of Mus musculus with 15 samples.

Results

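The coagulation and complement factors examined here were 40 genes that the liver uses to supply plasma with clotting factors, fibrinogen, kininogens, fibrinolysis proteins, complement components and their inhibitors. They were taken by gene symbol from the 55984 genes counted in the series, and all 40 were present and passed the filter on low counts that left 17488 genes for testing. The series compared hepatocytes of different ploidy and nuclear number, sorted by Hoechst fluorescence from adult male wild-type C57BL/6JJcl mice. The 2n-whole population held diploid cells and the 4n-whole population held all tetraploid cells. The 4n-bottom gate took the tetraploid cells of lower Hoechst-height, which were mostly binucleated, and the 4n-top gate took those of higher Hoechst-height, which were enriched for mononucleated cells but still mixed. All 4 populations shared collagenase perfusion, a Percoll step and the removal of dead cells, doublets and events outside the hepatocyte gate, but sorted 2n cells were centrifuged at a higher speed than sorted 4n cells, so that spin and ploidy cannot be told apart. There were 4 libraries of 2n-whole, 4n-whole and 4n-bottom (mice 1 to 4) and 3 of 4n-top (mice 2 to 4).

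Clotting proceeds as a chain of proteases that each activate the next, ending with thrombin, which converts fibrinogen to fibrin. Antithrombin, protein C and protein S restrain the chain, and plasmin dissolves the clot. Complement is a parallel chain, in which lectins or antibodies trigger the cleavage of C4, C2 and C3, and the terminal components C5 to C9 then assemble a pore in the target membrane. Hepatocytes make most of these plasma proteins, whereas C1q comes mainly from macrophages and factor VIII and von Willebrand factor mainly from endothelial cells.

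Total counts ranged from 22049498 (4n-whole of mouse 2) to 42096421 (2n-whole of mouse 1). The 7 hepatocyte markers that the table listed (of 8 on the list) were all expressed and together reached 81250 to 112200 CPM per library, where CPM is the read count scaled to a common library size with TMM normalization. The 11 macrophage markers summed to at most 10.0 CPM, the 11 endothelial markers to at most 31.4 CPM and the 11 stellate cell markers to at most 7.65 CPM, with none of these markers at 0 in every library. Of the 7 cholangiocyte markers, 1 was at 0 in every library. Together they summed to at least 34.7 CPM in each 2n-whole library and at most 31.2 CPM in each 4n-whole library. Most of that sum was Sox9, with means of 30.8 CPM in 2n-whole and 20.4 in 4n-whole, followed by Spp1 (9.61 and 1.35). The part of these markers in the results was not tested. The 4n-whole libraries of mice 2 and 4 stood apart from the other 13 for many of the factors, and the counts are also given without them.

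Per length of transcript, the factors ranged over more than 2 orders of magnitude in CPM per kb. Ranked by mean TPM, a level per transcript length, among 55865 genes of known length, 8 factors were within the top 100, 18 within the top 200 and 28 within the top 500. C3, on which all complement pathways converge, was the highest at a mean of 2025 ± 190 CPM per kb (SD, n = 15 libraries) and had rank 23 of all genes. The 3 fibrinogen chains were among the next 4 factors, with 1257 ± 196 CPM per kb for Fga (alpha chain), 1143 ± 163 for Fgb (beta chain) and 938 ± 190 for Fgg (gamma chain). Prothrombin (F2, 760 ± 82.4 CPM per kb), plasminogen (Plg, 746 ± 47.6), vitronectin (Vtn, 1007 ± 96.1) and high molecular weight kininogen (Kng1, 544 ± 94.0) were also among the 8 highest. At the low end stood complement C2 (5.37 ± 0.819 CPM per kb), protein S (Pros1, 9.055 ± 1.02), complement factor B (Cfb, 10.5 ± 2.29), plasma prekallikrein (Klkb1, 17.8 ± 3.37) and factor XI (F11, 18.9 ± 6.52). Of their 50-base windows, C2 and Cfb share 57.6% and 65.3% with the overlapping gene Gm20547. Klkb1 shares 42.7% with the overlapping gene Gm45753. How reads on shared bases were counted is not given in the sources used, so the low levels of C2, Cfb and Klkb1 are uncertain.

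Within complexes, the levels of subunits were close for some and far apart for others. The 3 chains of C8, which join the membrane pore together, had 223 ± 40.4 (C8a), 120 ± 23.1 (C8b) and 127 ± 10.8 (C8g) CPM per kb. Of the terminal components, C9 had 286 ± 47.8, Hc (complement C5) 231 ± 43.1 and C6 62.0 ± 11.2 CPM per kb. The terminal component C7, which was not among the 40, was listed at no more than 0.666 CPM in any library. The C1q chains C1qa and C1qb did not exceed 1.34 CPM.

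**Figure D1:**
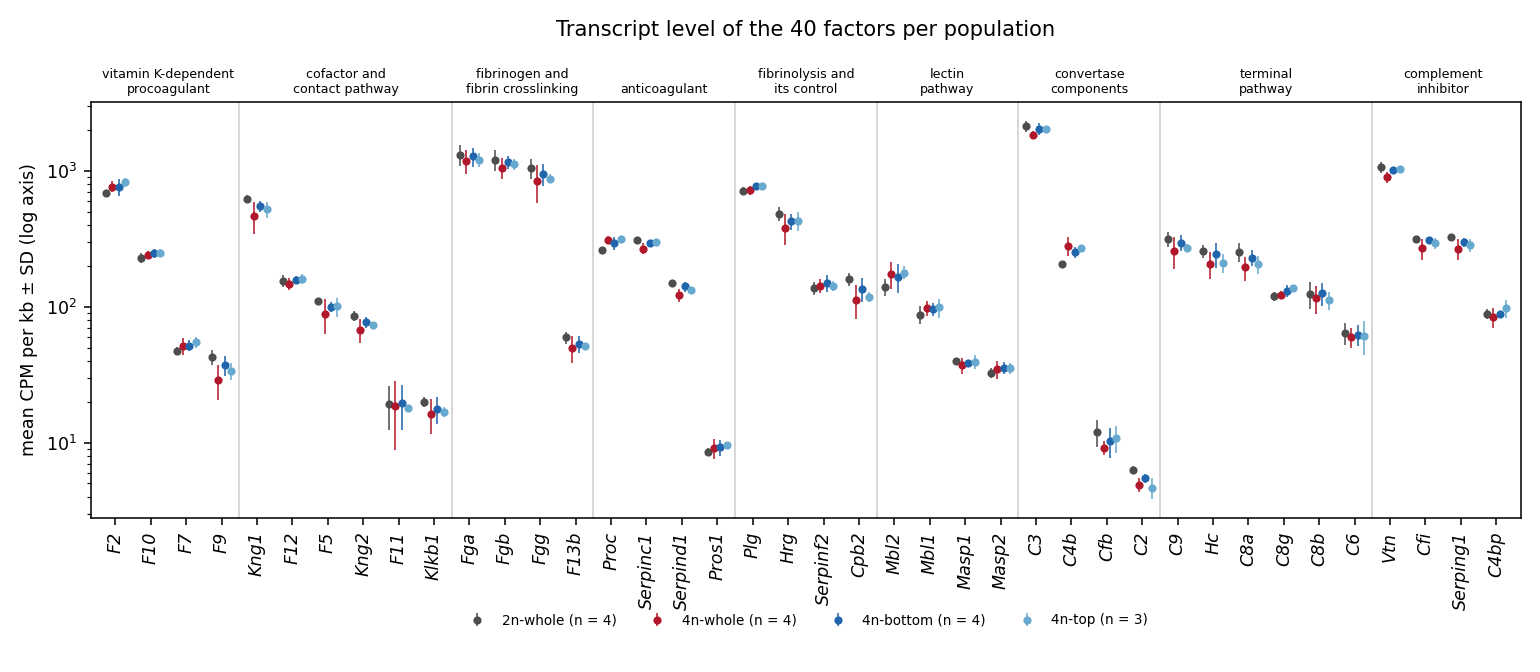
Mean CPM per kb of transcript (log axis) of the 40 factors, grouped by role and ordered by level within each group, with a point and an SD bar for each population. C3 and the fibrinogen genes sit near or above 1000 CPM per kb and C2 is lowest, and for most factors the 4 populations lie within their bars.

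Of the 40 genes, 15 lie in 6 genomic clusters in which neighbours are at most 200000 bases apart (GRCm39). The fibrinogen cluster Fgg, Fga and Fgb spans chr3:82915030-82957170, and Hrg, Kng2 and Kng1 lie together at chr16:22769822-22900840. C4b, Cfb and C2 share chr17:34947354-35117241, C8b and C8a share chr4:104623328-104733614, F7 and F10 share chr8:13076002-13106676, and F11 and Klkb1 share chr8:45693697-45747900.

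The promoters of the 3 fibrinogen genes are shown because the 3 chains form 1 protein and all were highest in mouse 1. The sequences are the bases just upstream of each gene's start on its own strand, 5′ to 3′ from GRCm39, within a window of 250 bases and without the bases that a longer annotated transcript of the same gene covers. Capitals mark matches, on either strand, to the C/EBP motif (TTGCNNAA), the IL-6 response element (CTGGGAA) and the HNF1 half-site (GTTAAT).
Fga, chr3:82933272-82933382, plus strand: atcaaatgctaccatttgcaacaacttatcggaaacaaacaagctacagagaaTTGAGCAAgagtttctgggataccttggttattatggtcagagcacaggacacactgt
Fgb, chr3:82957171-82957420, minus strand: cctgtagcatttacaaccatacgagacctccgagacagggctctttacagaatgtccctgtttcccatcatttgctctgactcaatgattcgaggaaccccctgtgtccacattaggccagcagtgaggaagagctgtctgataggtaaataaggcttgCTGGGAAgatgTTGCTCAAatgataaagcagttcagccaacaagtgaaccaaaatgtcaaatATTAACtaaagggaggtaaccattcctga
Fgg, chr3:82914781-82915029, plus strand: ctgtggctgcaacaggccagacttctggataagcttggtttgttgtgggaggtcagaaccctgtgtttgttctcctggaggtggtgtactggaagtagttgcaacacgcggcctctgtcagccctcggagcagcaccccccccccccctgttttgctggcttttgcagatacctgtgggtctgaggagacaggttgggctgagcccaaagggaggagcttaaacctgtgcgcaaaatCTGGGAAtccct

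In the 250 bases upstream of the start, the HNF1 half-site occurred in 10 of the 40 factors (25%) and in 6.28% of 21757 protein-coding genes. The C/EBP motif occurred in 11 factors (27.5%) against 9.34% of genes, and the IL-6 response element in 7 factors (17.5%) against 9.75%. The TATA box (TATAAA) was present in 3 factors (7.5%) against 11.9% of genes, and the long HNF4 motif searched (CAAAGTCCA) in 0 factors against 0.372%. Fgb carried the HNF1, C/EBP and IL-6 motifs at 29, 80 and 91 bases upstream of the start. Fga carried a C/EBP match at 197 bases and an HNF1 half-site at 105 bases, the latter in the bases not shown, and Fgg an IL-6 element 13 bases upstream. A match is a string of letters and not a measured binding site.

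The first comparison asked which factors differ between all tetraploid and all diploid hepatocytes. Of the 40 factors, 2 were called, both lower in 4n-whole: F9 (factor IX, the vitamin K-dependent protease deficient in haemophilia B) and Cpb2 (the carboxypeptidase that slows fibrinolysis). A gene was called at an adjusted p under 0.05 and an absolute log2 fold change over 0.5 in edgeR's quasi-likelihood test with the mouse as block, and 3.47% of all tested genes were called and 1.73% of all tested genes were called lower. A further 4 factors passed the adjusted p alone with lower values in 4n-whole (Kng1, Kng2, Hc and C8a), and C4b and Mbl2 passed it with higher values. These 6 lower and 2 higher factors compare with 2.54% and 2.93% of all genes past the adjusted p alone in the lower and higher direction. The median log2 fold change of the 40 was -0.20 and that of all tested genes -0.007, and 28 of the 40 fold changes (70%) were below 0. The p-values rest on the spread left after the population and mouse effects, estimated from all 15 libraries of these 4 mice. In sorted bulk samples, fewer cells that express a gene and less RNA of it per cell cannot be told apart.

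The direction of this median depended on the scaling. With library totals alone in place of TMM, the median of all genes moved to 0.20 and that of the factors to 0.01, with 21 factors above 0 and 19 below. C4b (0.63) and Mbl2 (0.51) were then called higher, and of the 10 factors past the adjusted p alone 8 were higher and 2 lower, F9 at -0.39 and Cpb2 at -0.33. Of all 17488 tested genes, 1509 were called with library totals and 2580 passed the adjusted p alone. A change of scaling shifts all genes by nearly the same amount. It therefore could not test whether the factors lay below the median of all genes.

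F9 lies at chrX:59044824-59076119 on the plus strand. Its CPM was 119, 103, 108.5 and 136 in 2n-whole of mice 1 to 4, and 92.8, 47.5, 98.6 and 76.6 in 4n-whole. The 2 groups did not overlap, and within 4n-whole the libraries of mice 2 and 4 were the lowest. The fitted log2 fold change was -0.60 ± 0.13 (SE, adjusted p = 0.00445), lower in 4 of 4 mice. In the 4n-bottom libraries F9 had 122, 89.1, 85.4 and 110 CPM, and in 4n-top of mice 2 to 4 it had 77.3, 104 and 95.2 CPM. The 4n-whole value of mouse 2 was below each of the other 14 libraries.

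Cpb2 (chr14:75479727-75521000, plus strand) had 269, 225, 210 and 245 CPM in 2n-whole and 229, 123, 176 and 141 CPM in 4n-whole. The groups overlapped through mouse 1, but each mouse was lower in 4n-whole, with a log2 fold change of -0.53 ± 0.11 (adjusted p = 0.00369). The other fibrinolysis genes did not pass the test. Plasminogen, the precursor of plasmin, had 1979 ± 124 CPM in 2n-whole and 2000 ± 162 in 4n-whole (SD, n = 4), and Serpinf2, the plasmin inhibitor, had a log2 fold change of 0.07 ± 0.08. Hrg, which binds plasminogen and heparin, had 862.6, 736, 795 and 974 CPM in 2n-whole and 775.5, 423.5, 794 and 665 in 4n-whole, and its log2 fold change of -0.36 ± 0.11 missed the threshold (adjusted p = 0.0567).

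**Figure D2:**
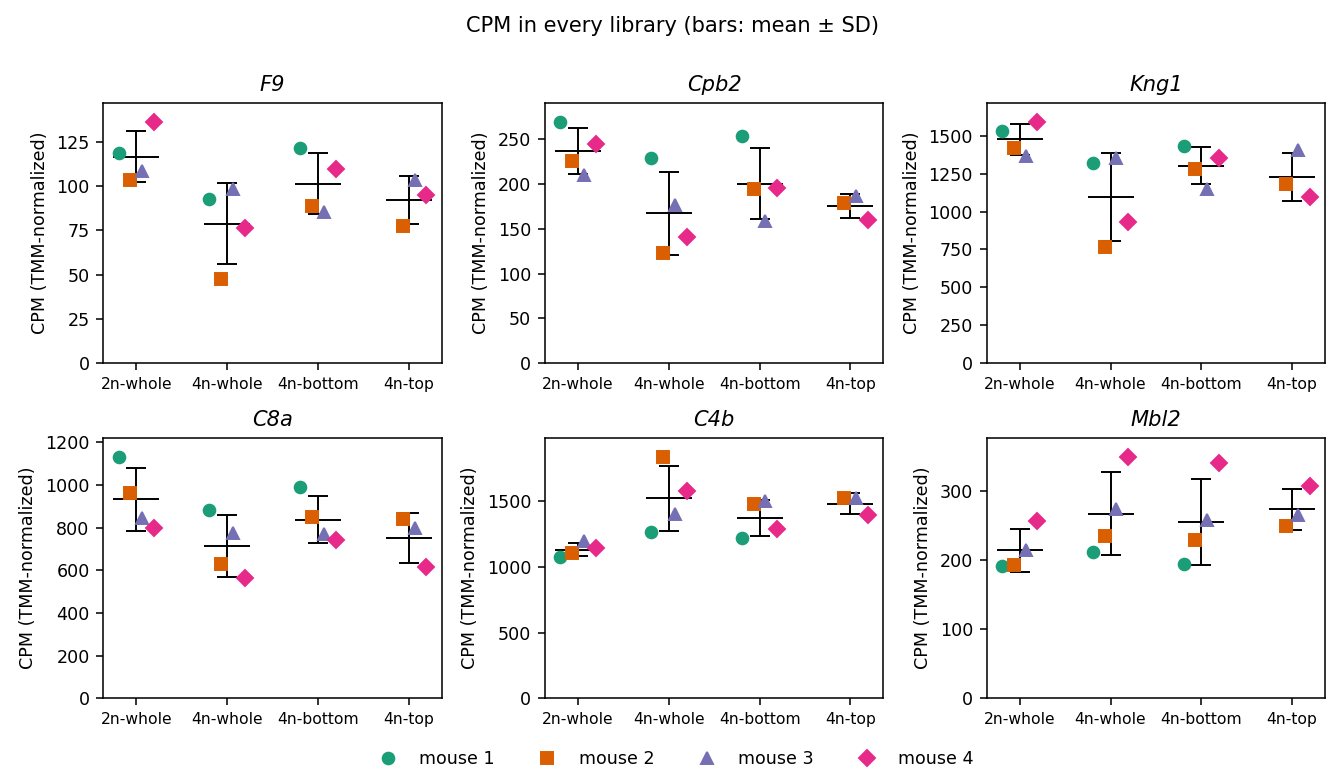
CPM of 6 factors in every library, on axes that start at 0, with symbols for the mouse and bars for the mean and SD of each population. The 4n-whole libraries of mouse 2 (squares) and mouse 4 (diamonds) are the lowest tetraploid points for F9, Cpb2 and Kng1, that of mouse 4 is the lowest for C8a, and the 2n-whole libraries are the lowest for C4b.

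The other vitamin K-dependent proteases of the chain did not pass the test. F2, F7 and F10 had log2 fold changes of 0.15 ± 0.08, 0.12 ± 0.09 and 0.07 ± 0.08 (adjusted p of 0.264, 0.526 and 0.713). Protein C (Proc), a vitamin K-dependent anticoagulant, had 407 to 435 CPM in 2n-whole and 446 to 519 in 4n-whole. The 2 ranges did not overlap, and the log2 fold change of 0.24 ± 0.08 did not pass (adjusted p = 0.0762). Antithrombin (Serpinc1) had 1490 to 1680 CPM in 2n-whole and 1192 to 1484 in 4n-whole, with -0.21 ± 0.08 (adjusted p = 0.136). Those ranges did not overlap either. Protein S (Pros1), the cofactor of protein C, had 0.08 ± 0.12.

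In the contact and kinin group, all 6 fold changes were below 0, with a median log2 fold change of -0.34, and the kininogens Kng1 and Kng2 passed the adjusted p. Kng1, the precursor of bradykinin, had 1533, 1417, 1369 and 1589 CPM in 2n-whole and 1323, 765, 1352 and 934 in 4n-whole. The groups did not overlap, and the libraries of mice 2 and 4 were the lowest of all 15. The log2 fold change was -0.46 ± 0.11 (adjusted p = 0.0162) for Kng1 and -0.36 ± 0.11 (adjusted p = 0.0453) for Kng2. The transcripts of these neighbouring paralogs share 17.8% and 17.9% of their 50-base windows, so that reads could be split between them. Factor V (F5), the cofactor of factor Xa, had 815.5 to 892 CPM in 2n-whole and 853, 444.5, 804.5 and 570 in 4n-whole, with -0.36 ± 0.11 (adjusted p = 0.0612). F11 and F12 had -0.09 ± 0.12 and -0.06 ± 0.08.

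The fibrinogen chains gave fold changes below 0 that did not pass the test. Their log2 fold changes were -0.15 ± 0.08 for Fga, -0.19 ± 0.08 for Fgb and -0.33 ± 0.11 for Fgg, with adjusted p of 0.300, 0.181 and 0.0709. Fgg had 2389, 2061, 1609 and 1846 CPM in 2n-whole and 2301, 1184, 1613 and 1281 in 4n-whole, so that mice 1 and 3 differed little and mice 2 and 4 were low. F13b, which carries the crosslinking enzyme factor XIII, had -0.27 ± 0.11 (adjusted p = 0.148).

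Among the complement genes, C4b and Mbl2 were higher in 4n-whole at an adjusted p under 0.05, without reaching the fold limit. C4b, whose product forms the C3 convertase of the classical and lectin pathways, had 1080, 1109, 1197 and 1148 CPM in 2n-whole and 1268, 1836, 1406 and 1582 in 4n-whole. The groups did not overlap, and the log2 fold change was 0.42 ± 0.08 (adjusted p = 0.00322). C4b (chr17:34947354-34962912, minus strand) shares 34.8% of its 50-base windows with C4a, so the division of reads between them is uncertain. C4a itself had 110 to 266 CPM in the libraries of mouse 2 and 15.6 to 60.8 CPM in all other libraries. Mbl2, a lectin that recognizes microbial sugars, had 192, 193, 214.5 and 257 CPM in 2n-whole and 212, 234, 274 and 349 in 4n-whole, higher in 4 of 4 mice, with 0.30 ± 0.08 (adjusted p = 0.0320). Its paralog Mbl1 had 0.16 ± 0.09 (adjusted p = 0.332), and the lectin-associated proteases Masp1 and Masp2 had -0.11 ± 0.09 and 0.09 ± 0.09.

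Other convertase components lay below 0. C3 had 10400 to 12680 CPM in 2n-whole and 8707 to 10380 in 4n-whole, with -0.20 ± 0.07 (adjusted p = 0.0763). Cfb and C2 had -0.36 ± 0.14 each (adjusted p of 0.132 and 0.136). These neighbours share 65.3% and 57.6% of their windows with Gm20547, an annotated transcript that joins both and had 0 counts in every library.

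Of the 6 terminal components, Hc and C8a passed the adjusted p. Hc had 1606, 1420, 1255 and 1334 CPM in 2n-whole and 1468, 1044, 1122 and 871 in 4n-whole, lower in each mouse, with -0.34 ± 0.09 (adjusted p = 0.0231). C8a had 1130, 961.5, 844 and 799 CPM in 2n-whole and 883, 632, 777.5 and 563.5 in 4n-whole, also lower in each mouse, with -0.39 ± 0.09 (adjusted p = 0.00642). The partner chains of C8a did not pass, since C8b had -0.11 ± 0.09 (adjusted p = 0.508) and C8g had 0.05 ± 0.09 (adjusted p = 0.828). C9 had 560 to 759 CPM in 2n-whole and 707, 393, 572 and 446 in 4n-whole, with -0.30 ± 0.10 (adjusted p = 0.0746). The 4 complement inhibitors had log2 fold changes from -0.29 (Serping1, the C1 inhibitor) to -0.09 (C4bp), and none passed.

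The median difference of the factors was furthest below 0 in mice 2 and 4. Within a mouse, the median log2 difference of the 40 factors between 4n-whole and 2n-whole was -0.09 in mouse 1, -0.41 in mouse 2, 0.03 in mouse 3 and -0.26 in mouse 4. The number of factors lower in 4n-whole was 26, 31, 16 and 33, while the share of all genes that were lower was 48.6% to 50.6%. Without the 4n-whole libraries of mice 2 and 4, 0 of the 40 factors passed the adjusted p, against 1.57% of all genes, and the values of F9 and Cpb2 were then -0.32 ± 0.12 and -0.30 ± 0.11 on the log2 scale (adjusted p of 0.2105 and 0.213). Without the 4n-whole library of mouse 2 alone, 5 factors passed it, against 474 of 17167 genes, and without that of mouse 4 alone, 3 passed, against 345 of 17252 genes. These libraries had 22049498 and 28612634 counts, against 37865487 and 38110566 in 4n-whole of mice 3 and 1. Their part in the differences was not tested beyond leaving them out.

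Transcript GC content ranged among the factors from 39.0% (F9) to 58.4% (F12, the contact factor). Across the 40 factors, the log2 fold change of 4n-whole against 2n-whole correlated with GC content at r = 0.48, and across 7366 expressed genes at r = 0.45. The 14 factors of lowest GC content (up to 46.4%) had a median log2 fold change of -0.29, and the 13 of highest GC content (52.1% or more) had a median of 0.05. In single libraries, the deviation of the factors from their mean over the 15 libraries correlated with GC content at r = 0.59 in 4n-whole of mouse 2 and r = 0.56 in 4n-whole of mouse 4. In 4n-bottom of mouse 3 it was 0.57, and in 4n-whole and 4n-bottom of mouse 1 it was -0.47 and -0.50. In the 2n-whole libraries it ranged from -0.47 to -0.19, and in the other tetraploid libraries from -0.16 to 0.315. These correlations are over genes that share libraries and are descriptions only.

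**Figure D3:**
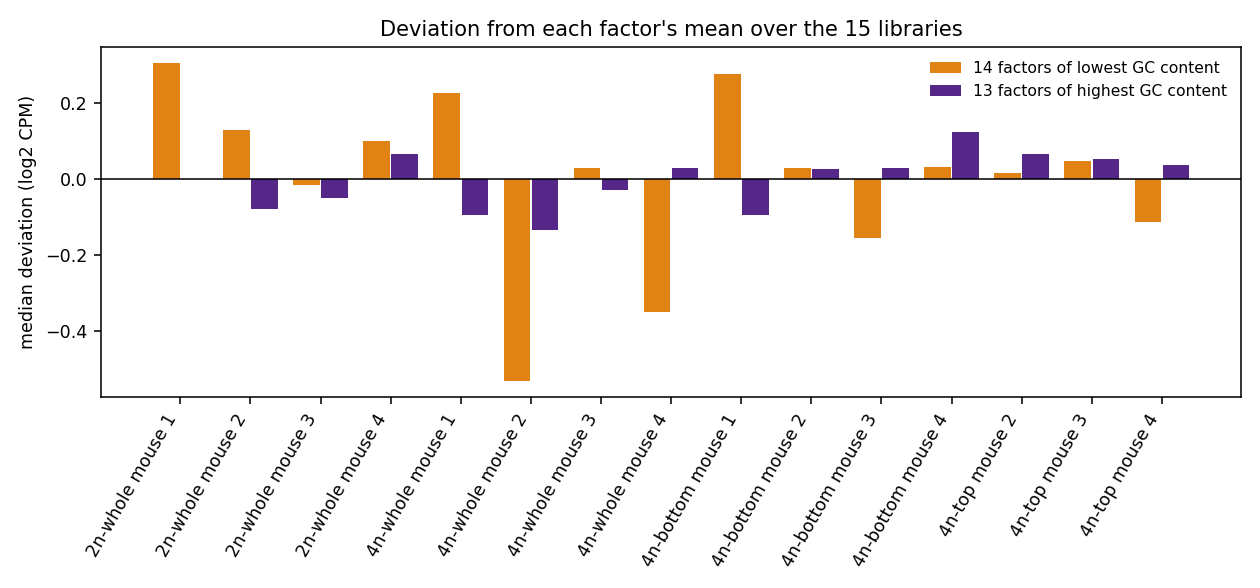
Median deviation in log2 CPM of the 14 factors of lowest GC content and the 13 of highest GC content, in each of the 15 libraries, from each factor's own mean. The low-GC factors lie at -0.53 and -0.35 in the 4n-whole libraries of mice 2 and 4. They lie at 0.31, 0.23 and 0.28 in 2n-whole, 4n-whole and 4n-bottom of mouse 1. The high-GC factors stay between -0.13 and 0.12.

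The contrast in base content is visible in the first 150 coding bases of F9 and C4b. They were picked because they moved in opposite directions and differ in GC content (39.0% and 55.3% of the transcript). Not every factor paired in this way, since Mbl2 (45.1% GC) had 0.30 ± 0.08 and Vtn (55.1% GC) had -0.25 ± 0.08. The sequences are spliced coding sequence from GRCm39, 5′ to 3′, with the start codon in capitals. The F9 stretch has 44% GC, with 40% in its whole coding sequence, and the C4b stretch has 62%, with 55.4% in its whole coding sequence.
F9: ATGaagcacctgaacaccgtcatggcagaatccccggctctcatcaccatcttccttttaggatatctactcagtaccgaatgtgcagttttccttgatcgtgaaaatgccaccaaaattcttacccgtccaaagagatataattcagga
C4b: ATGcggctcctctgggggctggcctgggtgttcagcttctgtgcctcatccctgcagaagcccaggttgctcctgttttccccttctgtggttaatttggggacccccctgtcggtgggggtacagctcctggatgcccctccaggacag

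With a correction for GC content in each library, added after the data were seen, the calls changed. No factor then passed both thresholds, and the log2 fold change of F9 was -0.31 ± 0.08, at an adjusted p of 0.0220. At the adjusted p alone, 16 of the 40 factors passed, 14 lower and 2 higher in 4n-whole, against 5.2% of all tested genes. They held all 8 that passed without the correction. Cpb2 (-0.44 ± 0.08), Kng1 (-0.44 ± 0.09) and C8a (-0.36 ± 0.06) were lower, and Mbl2 (0.38 ± 0.08) and C4b (0.27 ± 0.06) were higher. The factors that passed only with the correction were C2, Cfb, Vtn, Serping1, Hrg, F5, C3 and Serpind1, each lower, with log2 fold changes from -0.45 (C2) to -0.26 (Serpind1). The part of GC content in the differences was not tested apart from this correction.

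**Figure D4:**
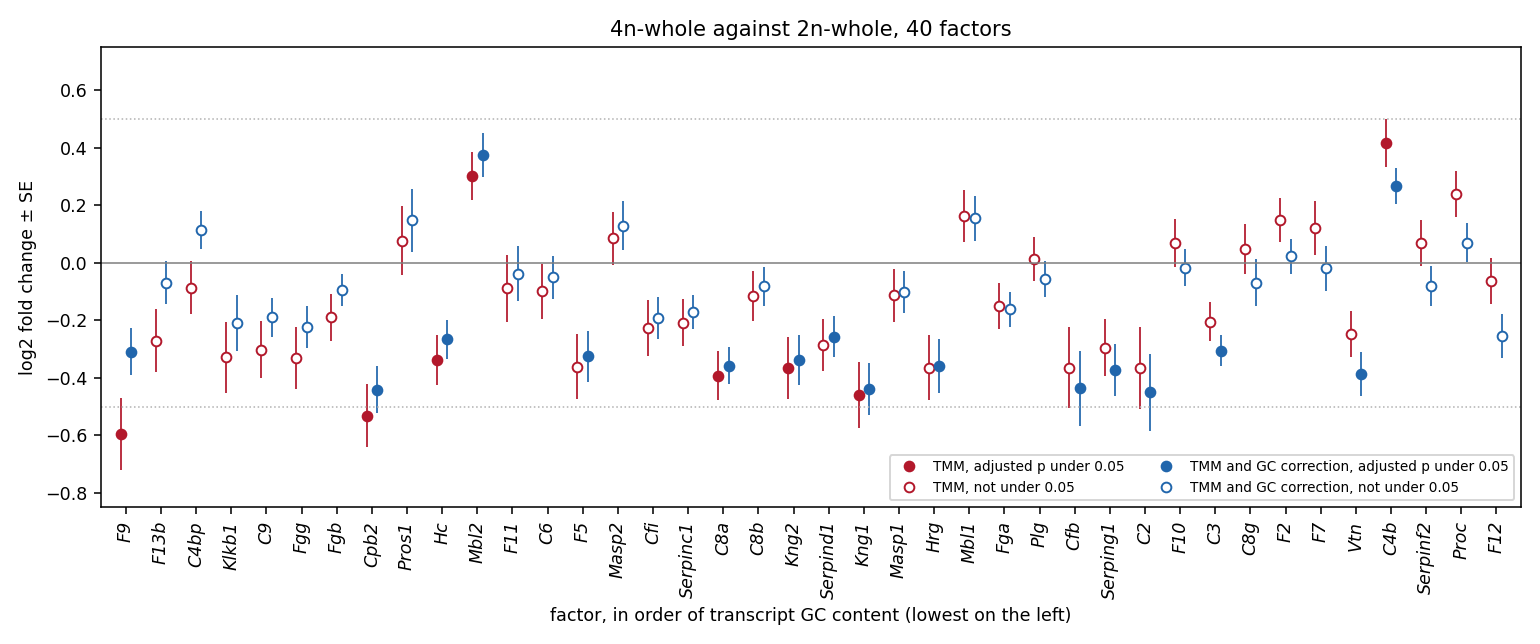
Log2 fold change with SE of each factor for 4n-whole against 2n-whole, ordered by transcript GC content from F9 (39.0%) to F12 (58.4%), without (red) and with (blue) the GC correction, filled where the adjusted p was under 0.05. F9 moves from -0.60 to -0.31 and no blue point lies beyond the dotted limits at 0.5, while C2, Cfb, Vtn, C3 and F5 become filled.

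Markers of the zones of the liver lobule also differed between the groups. The summed CPM of 11 markers of the pericentral zone was 614.5 to 966 in 2n-whole and 1023 to 3422 in 4n-whole, without overlap, and 10 of the 11 were called higher in 4n-whole. The 10 periportal markers summed to 72470 to 84600 CPM in 2n-whole and 59350 to 81450 in 4n-whole, and 2 of them were called lower. Most of that sum was Alb, with means of 64650 CPM in 2n-whole and 55770 in 4n-whole. The 2 called were Cyp2f2 (-0.73 ± 0.11) and Hsd17b13 (-0.61 ± 0.10). The part of the zone markers in the differences of the factors was not tested.

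The 4n-whole gate holds the cells of both fractions, so 4n-whole was also compared with the mean of 4n-bottom and 4n-top, a comparison chosen after the data were seen. No factor passed the adjusted p in edgeR, nor did any gene tested (0%). An unadjusted p under 0.05 was reached by 10 of the 40 factors and by 1042 of 17488 genes, and 37 of the 40 log2 fold changes were below 0, with a median of -0.14 against 0.0011 for all genes. In mouse 2, 32 factors were lower in 4n-whole than in both fractions of the same mouse, and in mouse 4, 28 were. In mouse 3, 12 were. The shares of all genes below both fractions were 40.3%, 34.9% and 33.4% in mice 2, 4 and 3. The lowest value was that of F9, with a log2 fold change of -0.35 ± 0.11 and an adjusted p of 0.787.

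Between the 2 tetraploid fractions, the comparison that addressed nuclear number, 0 of the 40 factors were called, against 0.0114% of tested genes. None had an unadjusted p under 0.05 in edgeR, and DESeq2, with the mouse as block or after ComBat-seq, called 0 as well. The log2 fold changes lay between -0.20 (C2) and 0.19 (F11), with a median of 0.02, and their SE was 0.08 to 0.16. An interval of 2 SE around the estimate stayed within 0.5 on the log2 scale for 39 of the 40, the exception being C2, whose lower bound was -0.51. These bounds concern the 2 gates and not pure mononucleated and binucleated cells. The 4n-top gate was still mixed, which by the authors' account likely reduced the differences measured. The 4 factors with the smallest p were F11 (0.19 ± 0.13), C4bp (0.13 ± 0.10), C2 (-0.20 ± 0.16) and Hc (-0.10 ± 0.10). Prothrombin had 1505, 1781 and 1681 CPM in 4n-bottom of mice 2, 3 and 4 and 1611, 1844 and 1621 in 4n-top, so that the difference changed sign between mice. In mouse 3, 34 of the 40 factors were higher in 4n-top, whereas in mouse 4, 36 were lower, and in mouse 2 the split was 20 and 20.

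The levels of the central factors were close in the fractions (mean ± SD, n = 4 for 4n-bottom and n = 3 for 4n-top). The 4n-bottom means include mouse 1, which had no 4n-top library here, so the 2 means are not over the same mice. C3 had 10640 ± 1136 CPM in 4n-bottom and 10520 ± 70.5 in 4n-top, and Fgb had 4446 ± 511 and 4296 ± 404. In mice 2, 3 and 4, Fgb had 4491, 3887 and 4293 CPM in 4n-bottom and 4609, 4440 and 3840 in 4n-top. The fitted log2 fold change of Fgb was 0.05 ± 0.09. Serpinc1 had 1491 ± 75.3 and 1511 ± 80.8 CPM, Plg 2131 ± 66.4 and 2152 ± 93.4, and F5 759 ± 66.8 and 761 ± 120.5. Each of these differences was within the spread of the libraries. Of the factors with lower CPM, Cfb, the protease of the alternative pathway convertase, had 34.2 ± 8.36 and 36.2 ± 8.21 CPM, and Mbl1 152 ± 17.4 and 156 ± 24.8. Hc had 1335 ± 278 and 1147 ± 184.5 CPM, with 1714 CPM in 4n-bottom of mouse 1. In mice 2, 3 and 4, Hc had 1369, 1095 and 1162 CPM in 4n-bottom and 1335, 1140 and 966 in 4n-top. For C2, which was lower in 4n-top in 3 of 3 mice, the libraries of mice 2, 3 and 4 had 14.5, 15.2 and 12.9 CPM in 4n-bottom and 14.3, 12.7 and 10.0 in 4n-top, and the groups overlapped.

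Against 2n-whole, each fraction taken alone gave no called factor. For 4n-bottom, 0 of 40 were called, against 0.463% of all genes, and 3 had an unadjusted p under 0.05, against 1777 of 17488 genes. For 4n-top, 0 were called, against 0.961% of genes, and 9 had an unadjusted p under 0.05, against 1977 of 17488 genes. DESeq2 with the mouse as block also called 0 in either comparison, and ComBat-seq followed by DESeq2 called 0, with 2 and 7 factors past the adjusted p alone, against 520 and 983 of 17484 genes. C4b had the smallest p in both, with log2 fold changes of 0.27 ± 0.08 in 4n-bottom (adjusted p = 0.216) and 0.33 ± 0.09 in 4n-top (adjusted p = 0.0871). It had 1224 to 1503 CPM in 4n-bottom and 1394 to 1529 in 4n-top, all above the 2n-whole maximum of 1197. Mbl2 followed, with 0.24 ± 0.08 and 0.27 ± 0.09, and Cpb2 with -0.26 ± 0.11 and -0.32 ± 0.12. The 3 comparisons with 2n-whole share its libraries and are not independent. F9 had -0.21 ± 0.12 in 4n-bottom and -0.29 ± 0.14 in 4n-top, and C2 had -0.40 ± 0.16 in 4n-top (adjusted p = 0.301).

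Other genes of the pathways were taken from lists of related genes, and their calls compare with the 3.47% of all tested genes called. Of 24 tested genes of wider clotting and fibrinolysis (30 listed), 1 was called lower in 4n-whole than in 2n-whole and 0 higher, and of 17 tested genes of wider complement (27 listed), 2 were called lower and 0 higher. F8, factor VIII, the cofactor of factor IX, had 6.015, 7.665, 3.69 and 5.63 CPM in 2n-whole and 4.505, 2.73, 2.05 and 2.72 in 4n-whole, with a log2 fold change of -0.96 ± 0.24 (adjusted p = 0.0183). As a gene expressed mainly in endothelial cells it was present at a low level, and the 11 endothelial markers summed to 17.0 to 26.1 CPM in 2n-whole and 6.95 to 31.4 CPM in 4n-whole. Their part in the F8 difference was not tested. Cfhr2, of the wider complement list, had 263, 254, 273 and 335 CPM in 2n-whole and 238, 133.5, 222 and 159 in 4n-whole (-0.61 ± 0.12, adjusted p = 0.00316). The 4n-whole libraries of mice 2 and 4 held the lowest values of Cfhr2, and with the GC correction neither F8 nor Cfhr2 passed both thresholds.

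The enzymes of the vitamin K cycle, on which the carboxylation of factors II, VII, IX and X depends, did not pass the test. Of Ggcx, Vkorc1 and Vkorc1l1, 0 were called in any of the 4 comparisons, and Ggcx, the carboxylase, had -0.12 ± 0.09 (adjusted p = 0.502). Of 12 liver transcription factors, 0 were called, and Cebpa alone passed the adjusted p, higher in 4n-whole (0.45 ± 0.11, adjusted p = 0.0142). It had 269, 307, 386 and 295 CPM in 2n-whole and 292, 585, 424 and 436 in 4n-whole. Of 21 acute phase and IL-6 response genes, 2 were called lower, Orm1 (-0.52 ± 0.11, adjusted p = 0.00385) and Lcn2 (-1.49 ± 0.43, adjusted p = 0.0388). Lcn2 was at a low level, with 1.39 ± 0.433 CPM in 4n-whole and 4.05 ± 2.21 in 2n-whole (mean ± SD). At the adjusted p alone, 3 were lower and 1 higher. The further lower gene was Cp (-0.48 ± 0.099, adjusted p = 0.00389), and the higher gene was Socs3 (0.37 ± 0.105, adjusted p = 0.0349).

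Many factors differed between mice. With the population held fixed, 17 of the 40 differed between the 4 mice at an adjusted p under 0.05, against 19.2% of all tested genes, and with the GC correction 21 did, against 21.9%. All 17 were among the 21. Without mouse 1, 7 factors differed between the remaining mice. The share of all genes in that fit was not taken, so the fall cannot be read as particular to the factors. Of the 17, 12 were highest in mouse 1, 3 in mouse 4 and 1 each in mice 2 and 3, by the mean of the 3 populations that every mouse had. The matching split over all genes that differed between mice was not taken, so it cannot be read as particular to the factors. Each mouse was also its own liver perfusion, so animal and preparation cannot be told apart. The ratio of the highest to the lowest mouse had a median of 1.24 over the 40 factors and of 1.30 over 7372 expressed genes.

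F11 had the smallest p. The factor XI zymogen gene lies at chr8:45693697-45715177 and had 81.1, 93.7 and 84.4 CPM in 2n-whole, 4n-whole and 4n-bottom of mouse 1. In the other 12 libraries it had 35.2 to 53.2 CPM, so mouse 1 did not overlap with the rest. The highest and lowest mouse means differed 2.15-fold (adjusted p = 3.03e-07). Its neighbour Klkb1 was also highest in mouse 1, by 1.45-fold (adjusted p = 0.0259).

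C8b had 474 to 505 CPM in mouse 1 and 287 to 394 in the other mice (1.56-fold between the highest and lowest mouse mean, adjusted p = 3.44e-05). Mbl2 was highest in mouse 4, with 257, 349, 341 and 307 CPM in its 4 libraries, and lowest in mouse 1, with 192, 212 and 195 CPM (1.58-fold, adjusted p = 4.33e-05). C6 was lowest in mouse 4, with 125 to 152 CPM against 175 to 240 in the others (1.48-fold, adjusted p = 9.38e-05). The terminal genes Hc, C8a and C9 were highest in mouse 1, by 1.42-fold, 1.43-fold and 1.35-fold between the highest and lowest mouse mean (adjusted p of 0.000457, 0.000820 and 0.0106).

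The 3 fibrinogen genes were highest in mouse 1 in each population that it had. Fga had 4211, 3984 and 4043 CPM in 2n-whole, 4n-whole and 4n-bottom of mouse 1 and 2562 to 3474 in the other libraries. Fgb had 5113 to 5657 CPM in 2n-whole and 4n-bottom and 5028 in 4n-whole of mouse 1, against 3454 to 4834 elsewhere. Fgg had 2144 to 2389 CPM in mouse 1 against 1184 to 2061. The mouse means differed 1.41-fold, 1.34-fold and 1.49-fold (adjusted p of 0.000312, 0.00261 and 0.00311). By contrast, the mouse means of Plg, Serpinc1 and Serpind1 lay within 1.06-fold, 1.09-fold and 1.09-fold of each other, with adjusted p of 0.886, 0.915 and 0.861.

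**Figure D5:**
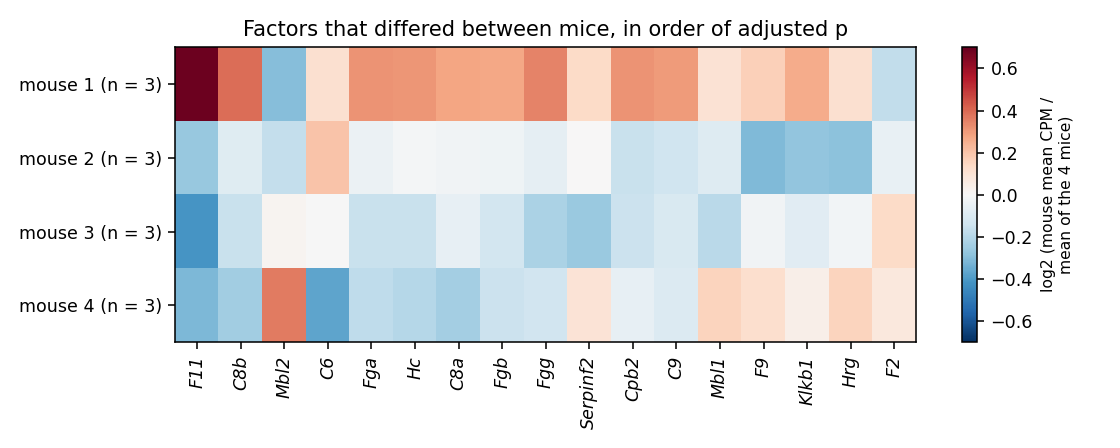
Mean CPM of each mouse relative to the mean of the 4 mice (log2 colour scale) for the 17 factors that differed between mice, each mouse mean taken over 2n-whole, 4n-whole and 4n-bottom (n = 3 libraries), ordered by adjusted p from F11. Mouse 1 is highest for 12 of the 17, with F11 standing out, and Mbl2 and C6 mark mouse 4 in opposite directions.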

How the data were processed

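RNA-seq counts per gene were deposited by the authors for 15 libraries of sorted hepatocytes. The submitters' processing notes name STAR 2.7.11a, featureCounts and GRCm39. The strand setting, the counting of mates and the annotation are not given in the sources used here. Genes passed edgeR's filterByExpr (minimum count 10, minimum total 15), libraries were scaled by TMM, and populations were compared in edgeR 4.0.16 (R 4.3.3) by the quasi-likelihood F test with the mouse as block, Benjamini-Hochberg adjusted over 17488 genes. Same-numbered libraries came from the same mouse by the labels, and their deviations correlated at r = 0.286 to 0.707 in each pair. Mice were compared by an F test of 3 mouse coefficients. For the GC correction, each gene's deviation from its mean log2 CPM (prior count 2) was fitted by transcript GC content in each library. The fit was a spline with 4 degrees of freedom on genes of mean log2 CPM over 3. It entered the edgeR model of the counts as an offset. DESeq2 1.42.0 and sva 3.50.0 (ComBat-seq) served as alternatives, on the same filtered genes, a filter added to DESeq2 after unfiltered fits were seen not to repeat exactly. Any factor could be named, with values in every library for those called or with the 4 smallest p in a comparison, 18 landmark factors, the 6 with the smallest p between mice, called genes of the related lists, and paralog pairs. In simulated counts for 4n-whole against 2n-whole over 16212 genes, a changed gene was found if it passed the adjusted p alone. Of 50 genes changed by 0.4 on the log2 scale 6 were found, of 50 at 0.6 30 were, and of 50 at 1 47 were. The changed genes were drawn from all expressed genes and not from the factors. The simulated spread came from a model with the mouse only, so it also held differences between populations. The members and lists were chosen with earlier results of these data known. The 4n-top library of mouse 1 was not analysed here. A called gene of the related lists is not reported here.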

Additional observations from a re-analysis of the deposited data

Results flagged for a closer look

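In each population of 4 libraries, 1 library was compared with the other 3 for every factor, and 6 of 120 such groups (5%) held a library whose distance from its nearest neighbour passed Dixon's critical value, about the share of 1 in 20 that chance gives. F11 in 4n-whole of mouse 1 had 93.73 CPM against 35.2 to 43.7 in the other mice, and C8b in 4n-bottom of mouse 1 had 497.3 CPM against 340 to 356.4. F5 in 2n-whole of mouse 1 had 891.7 CPM against 815.5 to 825. C3 in 2n-whole of mouse 4 had 12680 CPM against 10400 to 10680, and Vtn in 4n-bottom of mouse 4 had 1925 CPM against 1746 to 1747. Serpinf2 in 4n-whole of mouse 3 was low, at 275.6 CPM against 350.1 to 361.2.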

How the results depend on the processing

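No alternative reversed a called direction. The 2 factors called between 4n-whole and 2n-whole became 8 with no limit on the fold change, 0 without the mouse as block (no factor then passed the adjusted p), 0 with the GC correction, 0 to 4 when 1 mouse was left out, 0 without the 4n-whole library of mouse 2, 1 without that of mouse 4 and 0 without both. The 3 wider clotting and complement genes called there became 6 with no limit, 0 without the block, 1 with library totals, 0 with the GC correction, 0 to 8 when 1 mouse was left out, 1 without the 4n-whole library of mouse 2 and 0 without both. Of all 17488 tested genes, 607 were called there, 40 without the block, 475 with the GC correction and 1509 with library totals. Leaving out 1 mouse gave from 244 of 18791 genes (mouse 4) to 1025 of 18529 (mouse 3). Without the 4n-whole library of mouse 2, 338 of 17167 were called, and without that of mouse 4, 305 of 17252. Without both, 239 of 18971 were called. With library totals the median log2 fold change of the factors became 0.0088 for 4n-whole, 0.0755 for 4n-bottom and 0.1207 for 4n-top against 2n-whole, and ComBat-seq followed by DESeq2 gave -0.0726 for 4n-bottom. In place of 0, the wider genes called by DESeq2 with the mouse as block were 1 between the fractions and 2 for 4n-top against 2n-whole. For 4n-top they were 1 each with library totals, no filter, ComBat-seq and the compared populations alone, and 0 to 1 when 1 mouse was left out. The 17 factors that differed between mice became 7 to 16 when 1 mouse was left out, with 7 without mouse 1. The share of all genes that differed between mice in those fits was not taken. The cause of these changes was not tested. At an adjusted p alone, DESeq2 with the block gave 18 factors (and 1431 of 17488 genes) and DESeq2 after ComBat-seq 22 (2540 of 17484) for 4n-whole against 2n-whole, against 8 (957 of 17488) in edgeR. Halving the counts left 2 factors called between 4n-whole and 2n-whole.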
